A study of Mus musculus with 29 samples.

Results

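Collagen chain genes were examined in cultured stromal vascular fraction (SVF), the non-adipocyte cells released from white adipose tissue (WAT) by enzymatic digestion. Their members were all rows of the deposited count table that mapped to a protein-coding mouse gene whose symbol has the form of a collagen alpha chain. This gave 44 of 56953 rows, of which 11 encode fibrillar chains, 6 basement membrane (type IV) chains, 9 chains of fibril-associated collagens with interrupted triple helices (FACIT) and 18 chains of other types. At least 1 read was counted for 41 of the 44 chains, and 18 chains were detected in every one of the 29 libraries. Single libraries held between 22 and 31 detected chains.

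Collagens are built from alpha chains that wind into a triple helix in the endoplasmic reticulum. Fibrillar collagens assemble into the banded fibres that carry tension, type IV collagen forms the sheet-like network of basement membranes, FACIT collagens decorate fibres, and type VI collagen makes the beaded filaments that surround adipocytes and stromal cells in fat. Adipose stromal cells, the fibroblast-like progenitors of adipocytes, are known as the main source of fibrillar and type VI chains in this tissue.

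All libraries came from C57BL6/J mice with no transgene or other genetic change stated. Crude SVF of inguinal WAT (iWAT, subcutaneous) or perigonadal WAT (pgWAT, visceral) was grown for 4 days in PM1 medium with 1 nM basic FGF, a growth factor that keeps progenitors dividing, and every culture received it. The groups held 10 male iWAT, 9 female iWAT, 4 male pgWAT and 6 female pgWAT libraries, whose ages the sample labels do not give. By the study's own description the libraries of each depot are technical replicate wells of only a few separate experiments, and the labels do not tie a well to its experiment. The n given here counts wells and not experiments, so p-values measure the spread between wells and are too small as tests over independent cultures. In a crude culture fewer cells of a type and less RNA per cell cannot be told apart.

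Library totals ranged from 315316 to 1102234 estimated counts. In 24 libraries the sex-linked transcripts (Xist against Y-linked genes) matched the labelled sex, in 4 pgWAT libraries they were those of the opposite sex (labelled male 2 and 4, female 2 and 3), and 1 pgWAT library (female 1) held both kinds. These 5 libraries are also all of the pgWAT libraries from columns 9 and 10 of the library plate, whereas the other 5 came from columns 7 and 8, so that label conflict and plate column cannot be told apart in pgWAT. Log2 differences between the depots are given with these 5 libraries and, in the text or the plot of depot differences, without them. Fibroblast markers were high in sum throughout, with summed levels of Pdgfra, Dcn, Lum and Fn1 of 4026 to 6994 CPM (the number of counts relative to the library size) in iWAT and 6799 to 11026 CPM in pgWAT. Most of this sum was Fn1, with means of 3899 CPM in iWAT and 6046 CPM in pgWAT. Lum went the other way, with means of 352 and 227 CPM. By label this held in females only (522 CPM in iWAT and 202 CPM in pgWAT), whereas the male means were 199 and 266 CPM. Adipocyte, pericyte, Schwann and lymphatic endothelial lists stayed at or below 43.0 CPM in sum.

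Collagen transcripts made up between 0.957% and 2.45% of all counts. In iWAT the share had a median of 1.32% (0.961 to 2.01%), and in pgWAT a median of 1.87% (0.957 to 2.45%), so the depots overlapped. The highest shares belonged to the pgWAT libraries of plate columns 9 and 10 (2.10 to 2.45%), while those of columns 7 and 8 (0.957 to 1.64%) overlapped the range of iWAT.

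Per kilobase of transcript, an approximate scale for comparing different genes, Col6a1 was the highest chain in iWAT (mean 547 CPM per kb, n = 19), followed by Col1a2 (449), Col6a2 (440), Col3a1 (351), Col1a1 (273) and Col5a2 (151). By the study's own description the counts pool reads with and without molecular barcodes. Whether both kinds of read scale with transcript length was not tested, so orders and ratios between genes are approximate. This order pools the sexes. Col6a1 led in the male iWAT libraries. In the female ones the mean of Col1a2 was above that of Col6a1, and the mean of Col1a1 above that of Col6a2. In pgWAT the order of the means was Col3a1 (805 CPM per kb, n = 10), Col1a2 (669), Col1a1 (590), Col5a2 (283), Col6a1 (222) and Col6a2 (194). The lead of Col3a1 came from plate columns 9 and 10, where its ratio to Col1a2 per kilobase was 1.04 to 2.19. In the pgWAT libraries of columns 7 and 8 this ratio was 0.629 to 0.956, so Col1a2 stood above Col3a1 in each of them. Neighbours in both orders overlapped between libraries, as the plot of levels by class shows. These 6 chains held between 74.5% and 87.6% of the collagen counts of each library. Col4a1 and Col4a2 followed at 98.2 and 77.6 CPM per kb in iWAT and 123 and 111 in pgWAT.

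**Figure D1:**
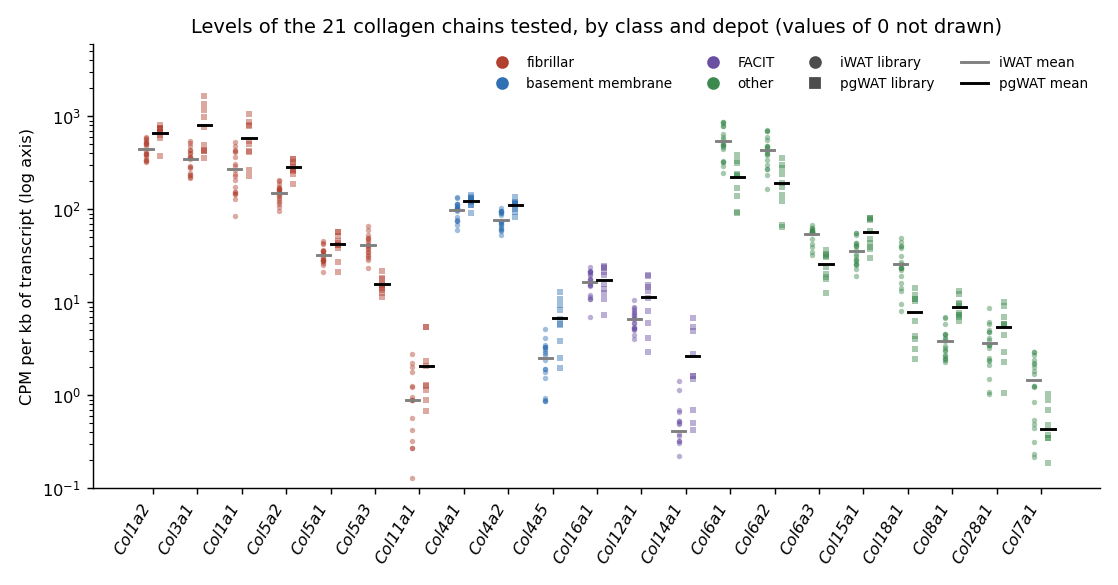
Level of each of the 21 collagen chains that passed the filter on low counts, as CPM per kb of transcript on a log axis. Each point is a library (circles iWAT, squares pgWAT, coloured by class), horizontal lines are depot means (grey iWAT, black pgWAT), and values of 0 are not drawn. Col6a1 leads in iWAT at a mean of 547 CPM per kb and Col3a1 in pgWAT at 805.

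The composition of the collagen transcripts differed between the depots more clearly than their total. Fibrillar chains held 43.8 to 67.8% of the collagen counts in the iWAT libraries (median 50.3%) and 70.8 to 83.5% in the pgWAT libraries (median 75.5%), and the ranges did not overlap. The type VI chains Col6a1, Col6a2 and Col6a3 together took 21.2 to 43.9% in iWAT (median 37.2%) and 6.04 to 15.2% in pgWAT (median 13.1%), again with no overlap. Because both shares are fractions of one total, they are a single observation and were given no test. Neither rests on the 5 pgWAT libraries with conflicting labels, since the pgWAT libraries of columns 7 and 8 alone had fibrillar shares of 70.8 to 75.7% and type VI shares of 7.31 to 15.2%. Type IV chains took 6.48 to 11.5% in iWAT and 6.04 to 14.4% in pgWAT, and FACIT chains 0.661 to 1.93% and 0.679 to 2.00%, so that the depots overlapped in both.

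**Figure D2:**
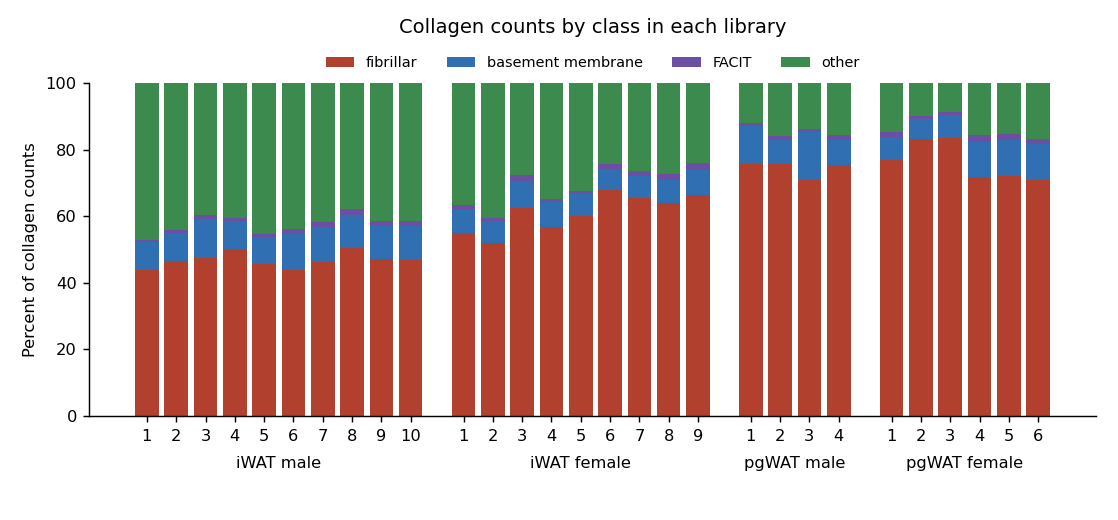
Stacked bars give the percent of collagen counts that fell to each class in every library (numbers are replicates within a group). Fibrillar chains (red) reach 43.8 to 67.8% in the iWAT libraries and 70.8 to 83.5% in the pgWAT libraries.

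Promoters are shown for the chains on which this contrast in composition turns, namely Col1a2 and Col3a1, which are among the most abundant fibrillar chains, Col6a1 and Col6a2, which carry the type VI signal, and Col5a3, the fibrillar chain that moved against its class. RefSeq entries on GRCm38.p6 were available for 35 of the 44 chains, and the 250 bases before the most upstream start are printed 5′ to 3′ on the strand of the gene. Capitals mark the TATA box (TATAAA), the CCAAT box (the letters of its name) and the GC box (GGGCGG), each on either strand.
Col1a2, chr6:4505368-4505617, plus strand: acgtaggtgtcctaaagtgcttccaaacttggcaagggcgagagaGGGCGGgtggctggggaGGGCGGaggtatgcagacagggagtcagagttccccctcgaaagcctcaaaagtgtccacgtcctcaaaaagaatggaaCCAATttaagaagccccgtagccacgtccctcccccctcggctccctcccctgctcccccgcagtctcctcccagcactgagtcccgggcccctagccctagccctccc
Col3a1, chr1:45311288-45311537, plus strand: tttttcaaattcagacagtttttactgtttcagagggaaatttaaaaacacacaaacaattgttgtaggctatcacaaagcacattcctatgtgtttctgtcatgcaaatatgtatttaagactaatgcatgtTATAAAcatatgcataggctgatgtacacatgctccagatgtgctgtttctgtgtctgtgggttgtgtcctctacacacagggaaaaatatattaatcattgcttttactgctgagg
Col5a3, chr9:20815068-20815317, minus strand: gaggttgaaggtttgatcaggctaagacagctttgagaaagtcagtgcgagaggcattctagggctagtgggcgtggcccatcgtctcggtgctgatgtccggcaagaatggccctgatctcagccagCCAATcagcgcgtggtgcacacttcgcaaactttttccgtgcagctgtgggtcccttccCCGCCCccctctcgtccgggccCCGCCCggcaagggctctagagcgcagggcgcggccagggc
Col6a1, chr10:76726045-76726294, minus strand: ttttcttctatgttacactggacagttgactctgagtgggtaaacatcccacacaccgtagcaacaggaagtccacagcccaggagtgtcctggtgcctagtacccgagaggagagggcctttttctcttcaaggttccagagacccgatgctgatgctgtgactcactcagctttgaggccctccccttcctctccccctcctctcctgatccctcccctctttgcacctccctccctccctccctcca
Col6a2, chr10:76623631-76623880, minus strand: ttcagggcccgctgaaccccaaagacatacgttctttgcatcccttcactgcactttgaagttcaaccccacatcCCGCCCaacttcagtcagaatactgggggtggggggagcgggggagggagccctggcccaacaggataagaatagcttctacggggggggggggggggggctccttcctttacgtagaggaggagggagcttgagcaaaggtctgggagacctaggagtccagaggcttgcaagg
Of all 32851 promoter windows in the table, 12.4% held the TATA box, 33.8% the CCAAT box and 32.7% the GC box within these 250 bases. Among the 35 chains the counts were 5, 12 and 21. Col3a1 held a TATA box and neither of the other motifs, Col1a2 and Col5a3 each held a CCAAT box and GC boxes, Col6a2 held a GC box alone, and Col6a1 held none of the 3. A match describes letters in this window only. Among protein-coding genes 8 pairs of chains lie side by side, namely Col3a1 with Col5a2, Col4a1 with Col4a2, Col4a3 with Col4a4, Col4a5 with Col4a6, Col6a1 with Col6a2, Col6a4 with Col6a5, Col6a5 with Col6a6, and Col9a1 with Col19a1. Both members were tested between the depots in 3 of these pairs (Col3a1 with Col5a2, Col4a1 with Col4a2, and Col6a1 with Col6a2). The 300-base windows around the starts of Col4a1 and Col4a2 lie on opposite strands and overlap by 78 bases.

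The depots were compared with edgeR's quasi-likelihood test with Benjamini-Hochberg adjustment over 8853 genes, each sex counted equally. Of the 44 chains, 21 passed the filter on low counts, and 13 of them were higher and 6 lower in pgWAT. Among all genes tested, 38.1% were called in this comparison (20.1% higher and 17.9% lower). The median log2 difference was 0.51 over the 21 chains and 0.01 over all genes. Chains of low level could pass the filter through the depot in which they were high, so the count is given as a description. All 3 type IV chains tested were higher, as were 6 of 7 fibrillar and 2 of 3 FACIT chains, whereas the other types split into 2 higher, 5 lower and 1 not called. Leaving out the 5 pgWAT libraries with conflicting labels left 5 chains higher, Col4a1, Col4a2, Col5a2, Col8a1 and Col15a1 (12.2% of all genes higher in that fit), and the same 6 lower (11.5%). With these libraries left out and no term for the labelled sex, 4 chains were higher (Col1a2, Col4a2, Col5a2 and Col8a1, with 12.5% of all genes higher) and the same 6 lower (10.8%), so that Col1a2, Col4a1 and Col15a1 depended on that term. With no filter on low counts, 16 chains were higher (7.55% of all genes) and 7 lower (6.35%).

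**Figure D3:**
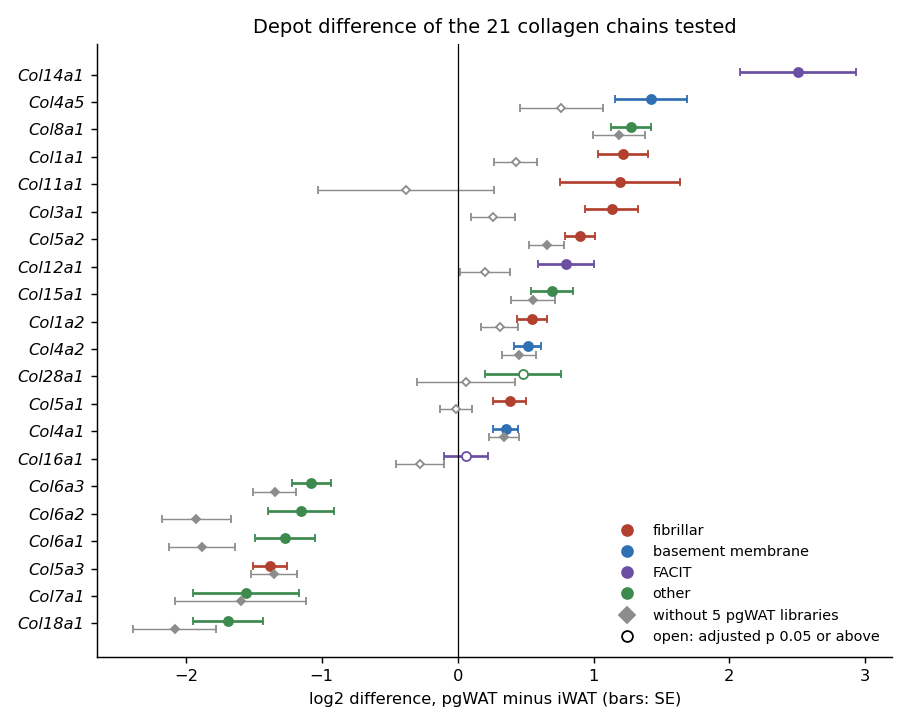
Log2 difference between pgWAT and iWAT for the 21 chains tested, with standard errors. Coloured circles use all 29 libraries, grey diamonds leave out the 5 pgWAT libraries with conflicting labels (Col14a1 did not pass the filter there), and open symbols did not pass the test. The 6 chains below 0 keep their place, whereas Col1a1 moves from 1.22 to 0.43 and Col3a1 from 1.13 to 0.26.

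Type I collagen, the main fibre-forming collagen, is a trimer of Col1a1 and Col1a2 chains. Col1a1 ranged from 502 to 3114 CPM in iWAT (median 1423). In the male pgWAT libraries it was 1370, 6294, 1576 and 5189 CPM for replicates 1 to 4, and in the female pgWAT libraries it spanned 2424 to 4763 CPM (median 3090). Both low male pgWAT values were of libraries from plate columns 7 and 8, and they lay within the range of iWAT. With all libraries Col1a1 was higher in pgWAT by 1.22 ± 0.18 (log2, SE), with an adjusted p of 2.05e-06 (edgeR). Without the 5 conflicting libraries the log2 difference was 0.43 and did not pass the test. Col1a2 was less variable, at 1737 to 3224 CPM in iWAT (median 2251) and 2001 to 4305 CPM in pgWAT (median 3768). Its log2 difference was 0.55 ± 0.11 (adjusted p = 0.000167), and 0.31 without the 5 libraries, which did not pass the test. In 8 of 10 pgWAT libraries Col1a2 exceeded every iWAT library. The ratio of Col1a1 to Col1a2 per kilobase was 0.603 ± 0.258 in iWAT (SD, n = 19) and 0.859 ± 0.322 in pgWAT (SD, n = 10), a difference within the spread between libraries of both sexes. By label it was 0.402 ± 0.119 in male iWAT and 0.937 ± 0.475 in male pgWAT (n = 10 and 4). In females it was 0.827 ± 0.164 and 0.807 ± 0.206 (n = 9 and 6). Male pgWAT replicates 1 and 3, of columns 7 and 8, were at 0.400 and 0.710.

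Type III collagen, a homotrimer of Col3a1 that is typical of loose connective tissue, varied with the plate column in pgWAT. Col3a1 measured 1198 to 3008 CPM in iWAT (median 2011), 1990 to 2710 CPM in the pgWAT libraries of columns 7 and 8, and 4320 to 9130 CPM in those of columns 9 and 10. The depots therefore separated in columns 9 and 10 and overlapped in columns 7 and 8. Over all libraries the log2 difference was 1.13 ± 0.19 (adjusted p = 1.71e-05), against 0.26 without the 5 conflicting libraries, which did not pass the test. When columns 9 and 10 were compared with columns 7 and 8 within pgWAT, Col3a1 was the 1 chain of 18 tested that passed (log2 1.49, adjusted p = 0.00345 by edgeR, n = 5 and 5), where 0.419% of all genes were called.

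Type V collagen sets fibre diameter, and its 3 chains did not move together. Col5a2 was at 637 to 1385 CPM in iWAT (median 1014) and 1227 to 2320 CPM in pgWAT (median 1850), and 9 of 10 pgWAT libraries exceeded every iWAT library. Its log2 difference of 0.90 ± 0.11 (adjusted p = 5.37e-08) remained called without the conflicting libraries, at 0.66. Col5a1 was at 176 to 387 CPM in iWAT and 179 to 484 CPM in pgWAT, with a log2 difference of 0.38 ± 0.12 (adjusted p = 0.0122) that fell to -0.01 without those libraries. Col5a3, a minor type V chain, went the other way. It was at 145 to 407 CPM in iWAT (median 248) and 70.0 to 133 CPM in pgWAT (median 92.1), and no pgWAT library reached the lowest iWAT library. Col5a3 was the only one of the 21 chains whose depots did not overlap, which held for 2.13% of all genes tested (0.666% with pgWAT lower). Its log2 difference was -1.38 ± 0.13 (adjusted p = 1.29e-10) and -1.35 without the conflicting libraries. Col11a1, a chain of type XI collagen that nucleates cartilage fibres, was scarce at 0 to 21.4 CPM in iWAT and 0 to 41.8 CPM in pgWAT, and its log2 difference of 1.20 ± 0.44 (adjusted p = 0.0303) became -0.38 without the conflicting libraries. Col11a1 was not called without female pgWAT replicate 5 (1.09), male pgWAT replicate 2 (0.99) or male pgWAT replicate 4 (0.91), nor Col5a1 without male pgWAT replicate 2 (0.28) or 4 (0.26). The remaining fibrillar chains Col2a1, Col11a2, Col24a1 and Col27a1 did not pass the filter and stayed at or below 28.5 CPM.

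Type VI collagen fell in pgWAT in all 3 chains that were tested. Col6a1 was at 997 to 3601 CPM in iWAT (median 2030) and 372 to 1561 CPM in pgWAT (median 946), and 7 of 10 pgWAT libraries lay below every iWAT library. Its log2 difference was -1.27 ± 0.22 (adjusted p = 2.41e-05). Col6a2 was at 765 to 3337 CPM in iWAT (median 1956) and 304 to 1651 CPM in pgWAT (median 849), with a log2 difference of -1.15 ± 0.24 (adjusted p = 0.00025). Col6a3, the longest chain of the trimer, was at 328 to 690 CPM in iWAT (median 577) and 128 to 368 CPM in pgWAT (median 278), with a log2 difference of -1.08 ± 0.15 (adjusted p = 3.58e-07). Without the 5 conflicting libraries the log2 differences of Col6a1, Col6a2 and Col6a3 were -1.88, -1.92 and -1.35, and each was called. The lowest Col6a1 values in pgWAT were those of male 1 (385 CPM) and male 3 (372 CPM), followed by female 3 (564 CPM) and female 2 (700 CPM), and these are the 4 pgWAT libraries that held Y-linked counts and no Xist. A relation with these transcripts was not tested. Within iWAT, female libraries of plate column 7 held 2030 to 3462 CPM of Col6a1 and those of column 8 held 1318 to 1364 CPM, so the reference level itself varied by column. Per kilobase, Col6a1 and Col6a2 kept a ratio of 1.25 ± 0.13 in iWAT (SD, n = 19) and 1.19 ± 0.15 in pgWAT (SD, n = 10), within the spread of each other, whereas both changed in level. Col6a4, Col6a5 and Col6a6, which can take the place of Col6a3 in the trimer, did not pass the filter. Col6a6 was detected in 19 of 19 iWAT libraries (1.65 to 15.4 CPM) and in 5 of 10 pgWAT libraries (up to 9.60 CPM).

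**Figure D4:**
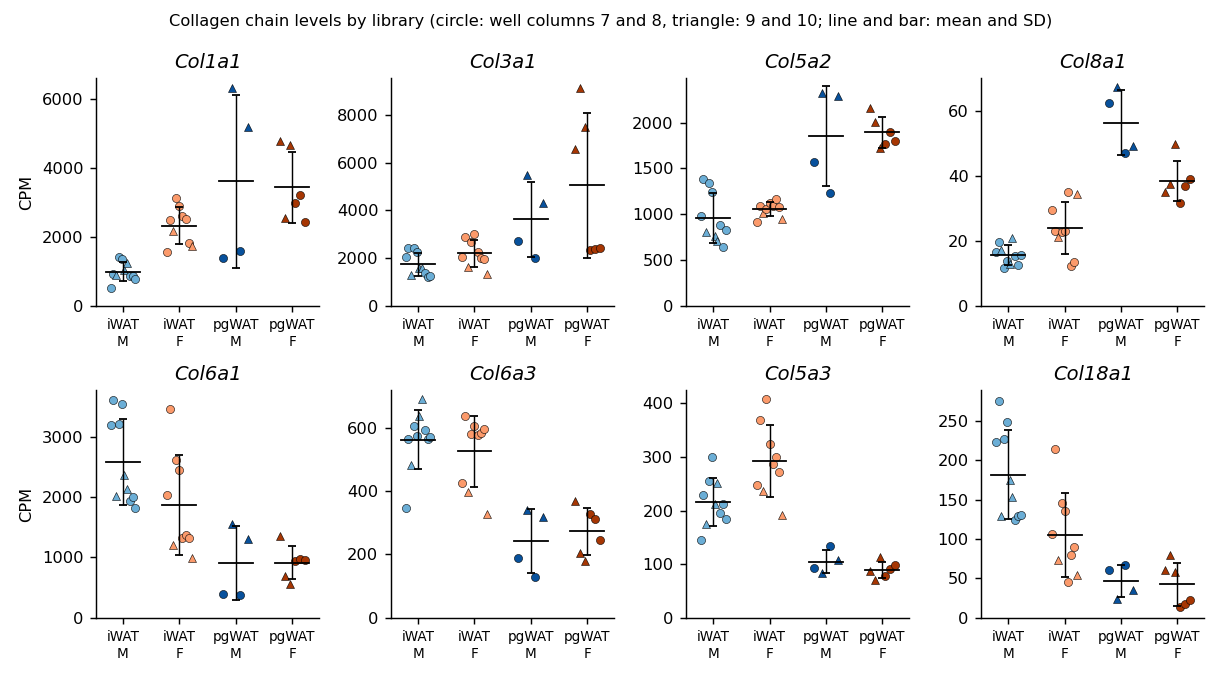
CPM of 8 chains in each library by group (M male, F female, as labelled). Circles are libraries of plate columns 7 and 8, triangles those of columns 9 and 10, lines and bars are means and SD. Col3a1 in pgWAT reaches 4320 to 9130 CPM in columns 9 and 10 and 1990 to 2710 CPM in columns 7 and 8, while Col5a3 stays at or below 133 CPM in every pgWAT library.

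Type IV collagen was represented chiefly by Col4a1 and Col4a2, the pair that forms the common basement membrane trimer. Col4a1 was at 400 to 908 CPM in iWAT (median 664) and 600 to 940 CPM in pgWAT (median 834), with a log2 difference of 0.35 ± 0.09 (adjusted p = 0.00217). Col4a2 was at 341 to 661 CPM in iWAT (median 475) and 529 to 883 CPM in pgWAT (median 741), and its log2 difference was 0.51 ± 0.10 (adjusted p = 9.6e-05). Both were called without the conflicting libraries, at 0.34 and 0.45, which average female log2 differences of 0.67 and 0.81 that were called and male ones of 0.02 and 0.09 that were not. These were the smallest differences called beside that of Col5a1, and the depots overlapped. Col4a5, a chain of specialised basement membranes, was at 5.65 to 33.7 CPM in iWAT and 13.0 to 85.0 CPM in pgWAT (log2 1.42 ± 0.27, adjusted p = 5.98e-05), but without the conflicting libraries its log2 difference of 0.76 did not pass the test. Endothelial cells also make type IV collagen, and the endothelial markers Pecam1, Cdh5, Kdr and Cldn5 were low in both depots, summing to 23.8 to 88.6 CPM in iWAT and 36.0 to 99.2 CPM in pgWAT. Kdr was higher in pgWAT (log2 1.16, and 0.84 without the conflicting libraries, which did not pass), the 2 other markers tested did not pass, and their part in the type IV levels was not tested. Col4a3 and Col4a4, partners of Col4a5 in other tissues, did not pass the filter. Col4a3 was counted in 2 of 19 iWAT libraries (up to 1.45 CPM) and 7 of 10 pgWAT libraries (up to 10.4 CPM), and Col4a4 in 4 of 19 and 8 of 10. Most of these values correspond to a few reads, since 3 reads equal 2.58 to 9.76 CPM depending on the library.

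Type XV and type XVIII collagens, the multiplexins that link basement membranes to the stroma, moved in opposite directions. Col15a1 was at 99.0 to 287 CPM in iWAT (median 170) and 156 to 420 CPM in pgWAT (median 276). Its log2 difference was 0.69 ± 0.16 (adjusted p = 0.000549) and 0.56 without the conflicting libraries, still called. That value averages opposite signs, since without those libraries Col15a1 had a log2 difference of 1.35 in males (adjusted p = 7.6e-05) and -0.24 in females (adjusted p = 0.496), and within plate column 8 the female value was -0.20 (adjusted p = 0.44, all by edgeR). Col18a1, the precursor of endostatin, was at 45.4 to 276 CPM in iWAT (median 131) and 13.8 to 80.0 CPM in pgWAT (median 47.0), a log2 difference of -1.69 ± 0.26 (adjusted p = 2.92e-06) that was -2.08 without them. Among the pgWAT libraries both chains stood highest in male 1, male 3, female 2 and female 3, at 399, 418, 420 and 404 CPM for Col15a1 and 60.8, 66.6, 80.0 and 58.6 CPM for Col18a1, with female 1 level with them in Col18a1 (60.8 CPM) and below them in Col15a1 (301 CPM). The other 5 pgWAT libraries held 156 to 251 CPM of Col15a1 and 13.8 to 35.3 CPM of Col18a1. Male 1, male 3, female 2 and female 3 held Y-linked counts and no Xist, female 1 held both, and the other 5 held Xist with at most 1 Y-linked count. This was noticed in the data and was not tested.

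Of the FACIT chains, Col12a1, which is induced by mechanical load, was at 46.1 to 123 CPM in iWAT (median 75.9) and 33.3 to 227 CPM in pgWAT (median 140), a log2 difference of 0.80 ± 0.21 (adjusted p = 0.00281) that was 0.20 and not called without the conflicting libraries. Col14a1 was at 0 to 9.26 CPM in iWAT and 2.77 to 43.4 CPM in pgWAT, and its fitted log2 difference of 2.50 ± 0.43 (adjusted p = 1.77e-05) rests on iWAT values near the 3-read level. Col16a1 was at 36.2 to 124 CPM in iWAT and 38.2 to 129 CPM in pgWAT and did not pass the test (log2 0.06 ± 0.16, adjusted p = 0.805). Col9a1, Col9a2 and Col19a1 had no read in any library, whereas Col9a3, Col20a1 and Col22a1 had between 5 and 32 reads over all 29 libraries.

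Col8a1, which encodes a short-chain collagen of vessel walls and remodelling tissue, was at 11.6 to 35.2 CPM in iWAT (median 17.3) and 31.8 to 67.4 CPM in pgWAT (median 43.1), and 9 of 10 pgWAT libraries exceeded every iWAT library. Its log2 difference was 1.27 ± 0.15 (adjusted p = 1.63e-08), and 1.19 without the conflicting libraries. Col7a1, the anchoring fibril chain of skin, was at 1.99 to 27.4 CPM in iWAT and 0 to 9.60 CPM in pgWAT (log2 -1.56 ± 0.39, adjusted p = 0.00175). That value averages a female log2 difference of -2.45, which was called, and a male one of -0.67, which was not. In pgWAT Col7a1 had 22 reads over 8 libraries, so its pgWAT values lie near the 3-read level. Col28a1 was at 4.33 to 37.2 CPM in iWAT and 4.45 to 42.5 CPM in pgWAT and did not pass the test (log2 0.48 ± 0.28, adjusted p = 0.184). Transmembrane collagens were at or near the detection limit, since Col13a1, Col17a1, Col23a1 and Col25a1 had 5 to 39 reads each over all libraries. Col2a1, Col13a1, Col22a1 and Col25a1, with 4 to 9 reads each in all, were counted in iWAT libraries and in none of pgWAT, at a depth that allows no fold. The other chain counts below the filter were 7 reads for Col10a1, 34 for Col8a2 and 4 for Col26a1.

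Markers of other cell types and states moved with depot beside these chains. Among the smooth muscle markers, Acta2, Tagln and Mylk were higher in pgWAT (3 of 3 tested, of 4 listed), with list sums of 584 to 3539 CPM in iWAT and 1337 to 3130 CPM in pgWAT. Of 8 proliferation genes, 7 were lower in pgWAT and 1 did not pass, with sums of 857 to 1323 CPM in iWAT and 476 to 997 CPM in pgWAT. Mesothelial markers summed to 1.96 to 98.7 CPM in iWAT and 46.9 to 147 CPM in pgWAT, where Upk3b and Wt1 were higher and Krt19 lower. Upk3b and Wt1 had iWAT means of 0.045 and 0.44 CPM. They passed the filter on low counts only through pgWAT, so their calls are given as a description. Macrophage markers summed to 56.5 to 216 CPM in iWAT and 84.4 to 640 CPM in pgWAT, with Cd68 higher and Cd14 not called. In the pgWAT libraries of columns 7 and 8 the macrophage sum had a median of 97.6 CPM (84.4 to 640), against a median of 127 CPM in iWAT. Epithelial markers summed to 0 to 1355 CPM in iWAT, where the highest value was of female 9, and to 10.4 to 152 CPM in pgWAT, and neither marker tested passed. Without the 5 conflicting libraries Tagln and Mylk (2 of 3 smooth muscle markers), Upk3b, Wt1 and Cd68 were still called higher, Krt19 lower, and 6 of the 8 proliferation genes lower, whereas Acta2 did not pass. Of the fibroblast markers, Pdgfra, Dcn and Fn1 were higher with all libraries and Lum was not called. Without the 5 libraries Pdgfra and Fn1 were higher, Lum was lower (log2 -1.15) and Dcn did not pass. Of all genes, 20.1% were higher and 17.9% lower with all libraries, and 12.2% and 11.5% without the conflicting ones. The part of these cells and states in the collagen differences was not tested.

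Within the labelled sexes, 10 chains were higher and 5 lower in male pgWAT than in male iWAT (11.8% and 8.53% of all genes), and 9 were higher and 6 lower in female pgWAT than in female iWAT (14.2% and 12.6%). These comparisons use separate libraries. Col5a3, Col6a1, Col6a2, Col6a3 and Col18a1 were lower in both, although Col6a2 was not called in females without female pgWAT replicate 3 (log2 -0.88). With plate column as a factor the female comparison had 6 higher (10.2% of all genes) and 4 lower calls (8.96%), in which Col6a1 (log2 -0.39, adjusted p = 0.389) and Col6a2 (-0.35, adjusted p = 0.499) did not pass. Among the chains higher, Col1a2, Col3a1, Col4a5, Col5a2, Col8a1 and Col14a1 were called in both with all libraries, but no chain was higher in both without the conflicting ones, and Col3a1 and Col14a1 also lost the female call with plate column as a factor. Col1a1 had a log2 difference of 1.87 ± 0.26 in the male comparison (adjusted p = 2.82e-06) and 0.57 ± 0.25 in the female one (adjusted p = 0.0908), and Col8a1 one of 1.85 ± 0.21 (adjusted p = 5.8e-08) and 0.69 ± 0.20 (adjusted p = 0.00907). Without the conflicting libraries Col1a1 was at 0.55 in males (adjusted p = 0.171) and 0.31 in females (adjusted p = 0.346), neither called, and Col8a1 at 1.79 in males, which was called, and 0.59 in females, which was not (adjusted p = 0.123). A test of the difference itself, the depot by sex term, called no chain in edgeR, and 0.181% of all genes passed. This term uses the labelled sexes, including those of the conflicting pgWAT libraries, so it cannot decide on a difference between the sexes. It was not fitted without these libraries. At an unadjusted p under 0.05 in edgeR there were 7 of 21 chains, beside 772 of all 8853 genes. DESeq2 (0.418% of all genes called) and limma-voom (0.0226%) called 0 chains as well. The term was 1.16 ± 0.30 for Col8a1 (adjusted p = 0.11) and 1.30 ± 0.37 for Col1a1 (adjusted p = 0.185), and Col1a1 was called when male pgWAT replicate 1 was left out (log2 1.58) and with no filter on low counts (0.275% of all genes called). In males, Col3a1 (log2 1.06) was not called without male pgWAT replicate 2 (0.80), nor Col1a2 (0.51) without male pgWAT replicate 2 (0.42) or 4 (0.38). Without the conflicting libraries the higher calls were Col4a5, Col8a1 and Col15a1 in males (3 chains, against 5.84% of all genes) and Col4a1, Col4a2, Col5a2 and Col12a1 in females (4 chains, 9.94%), while Col5a3, Col6a1, Col6a2, Col6a3 and Col18a1 were lower in both, with 5 lower calls in males (3.32%) and 6 in females (8.35%).

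The depots were also compared within 1 plate column for each labelled sex. In column 8, 3 female pgWAT and 3 female iWAT libraries, all with matching sex-linked genes, gave 7 chains higher (8.25% of all genes) and 6 lower (5.74%). The lower chains were again Col5a3, Col6a1, Col6a2, Col6a3, Col7a1 and Col18a1, of which Col6a1 differed by -0.49 on the log2 scale (adjusted p = 0.00319, edgeR). In the same column Col1a1 (0.31), Col3a1 (0.19) and Col5a1 (-0.01) did not pass. In column 9, 2 libraries labelled male pgWAT, which held Xist and at most 1 Y-linked count, were set against 3 male iWAT libraries that held Y-linked counts and no Xist, so that depot and sex cannot be told apart there. They gave 10 chains higher (12.0% of all genes) and 5 lower (11.3%), with Col1a1 at 2.43 and Col3a1 at 1.72, and Col7a1 did not pass (-0.01). The lower level of type VI chains, Col5a3 and Col18a1 was therefore called in both columns, whereas Col1a1 and Col3a1 were called in column 9.

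Sex was compared in iWAT, where sex-linked genes of all 19 libraries matched their labels. Of 21 chains, 2 were lower and 1 higher in male libraries, and 3.22% of all genes were called (2.13% lower and 1.08% higher). The median log2 difference over the chains was -0.33, against 0.01 over all genes. Col1a1 was at 502 to 1423 CPM in males (median 909) and 1564 to 3114 CPM in females (median 2469), with no overlap. Its log2 difference, male minus female, was -1.23 ± 0.22 (adjusted p = 0.00114), and -1.41 within plate column 7, still called (1.4% of all genes lower there and 1.26% higher). Col7a1 was at 1.99 to 15.8 CPM in males (median 4.80) and 7.92 to 27.4 CPM in females (median 20.4), a difference of -1.54 ± 0.36 (adjusted p = 0.0122) that was -1.24 and not called within column 7. Col4a1 was at 630 to 908 CPM in males (median 732) and 400 to 692 CPM in females (median 504), a difference of 0.45 ± 0.11 (adjusted p = 0.0123) that was 0.23 and not called within column 7. Col1a2, the partner of Col1a1, differed by -0.16 ± 0.13 (adjusted p = 0.587), and Col3a1 by -0.34 ± 0.23 (adjusted p = 0.516), so that neither passed. The ratio of Col1a1 to Col1a2 per kilobase was 0.402 ± 0.119 in male iWAT (SD, n = 10) and 0.827 ± 0.164 in female iWAT (SD, n = 9).

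Collagen composition also separated the sexes in iWAT. Fibrillar chains held 43.8 to 50.3% of collagen counts in males (median 46.7%) and 51.9 to 67.8% in females (median 62.6%). Within plate column 7 the shares were 43.9 to 50.3% in males and 51.9 to 59.99% in females, still without overlap but closer. Female libraries of columns 8, 9 and 10 held 62.6 to 67.8%. No male iWAT library came from column 8 or 10, so sex and column cannot be told apart there. Col6a1, Col6a2 and Col6a3 together held 35.6 to 43.9% in males and 21.2 to 37.5% in females, which overlapped. No single type VI chain passed the test between the sexes, with log2 differences of 0.47 for Col6a1 (adjusted p = 0.344), 0.40 for Col6a2 (adjusted p = 0.481) and 0.09 for Col6a3 (adjusted p = 0.836). Col18a1 was at 124 to 276 CPM in males and 45.4 to 215 CPM in females and missed the threshold (0.79 ± 0.26, adjusted p = 0.082). Col5a3 also missed it, with a lower male level (-0.44 ± 0.13, adjusted p = 0.0606), and was called lower by DESeq2 (2.79% of all genes lower), with plate column as a factor (2.72%), with no filter on low counts, and without female iWAT replicate 3 (-0.48) or 9 (-0.50) or male iWAT replicate 5 (-0.51). Col18a1 was called by limma-voom (1.14% of all genes higher and 1.54% lower), with no filter on low counts (0.717% and 1.2%), and without female iWAT replicate 2 (log2 0.99). In pgWAT no chain was called between the labelled sexes by edgeR (0.0113% of all genes called), DESeq2 (0.192%) or limma-voom (0.0678%). In edgeR 1 chain had an unadjusted p under 0.05 (Col8a1, log2 0.55), beside 739 of all 8853 genes. Of the 10 libraries in that comparison, 5 carried sex-linked transcripts that conflict with their label.

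**Figure D5:**
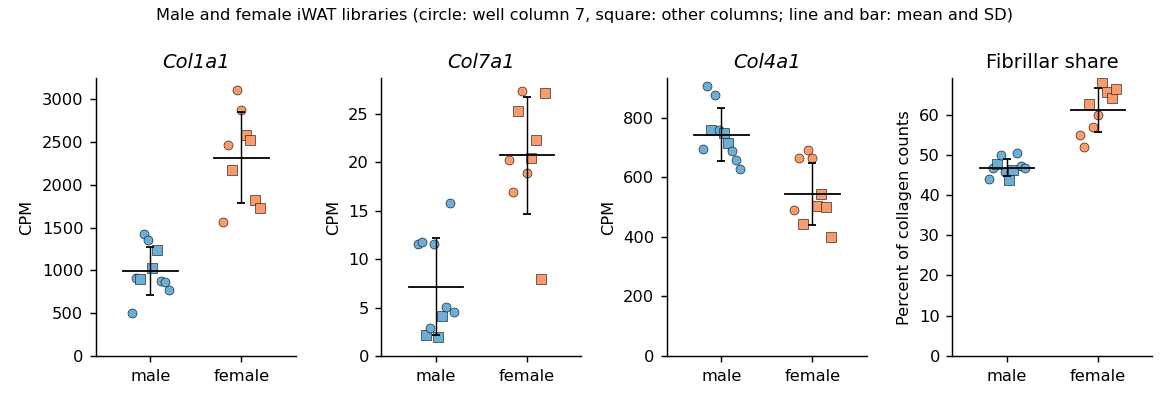
Male and female iWAT libraries: CPM of Col1a1, Col7a1 and Col4a1, and the percent of collagen counts from fibrillar chains. Circles are plate column 7, squares other columns, lines and bars are means and SD. Col1a1 reaches at most 1423 CPM in males and at least 1564 CPM in females, and the fibrillar share at most 50.3% and at least 51.9%.

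Genes that modify, secrete, trim, cross-link and bind collagen were followed beside the chains. Of 45 listed genes, 38 were tested between the depots, and 25 were higher, 4 lower and 9 not called in pgWAT. Of all genes, 38.1% were called (20.1% higher and 17.9% lower). Genes low in iWAT, among them Itga11, Ddr1, Itga2, Pcolce2 and Tmem38b, could pass the filter on low counts through pgWAT, where they were high. The counts of these lists are therefore given as a description. Without the 5 conflicting pgWAT libraries (an alternative chosen after seeing the data) 17 of 38 tested were higher, 3 lower and 18 not called. In that fit 12.2% of all genes were higher and 11.5% lower. The same shares stand beside the counts of each list below. Of 12 genes of hydroxylation and glycosylation tested, 8 were higher and 4 did not pass. Plod2, the lysyl hydroxylase that acts on collagen telopeptides, was at 1.65 to 28.4 CPM in iWAT and 41.7 to 236 CPM in pgWAT without overlap (log2 3.63 ± 0.26, adjusted p = 4.2e-13). P4ha2, a prolyl hydroxylase subunit that stabilises the helix, rose by 1.33 ± 0.11, and Plod1, another lysyl hydroxylase, by 1.12 ± 0.12. Without the conflicting libraries the log2 differences of Plod2, P4ha2 and Plod1 were 3.00, 0.99 and 0.67, each called, and the same 8 genes of this list were called.

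In folding and secretion 5 of 11 genes were higher, 1 lower and 5 not called. Tmem38b, an endoplasmic reticulum cation channel needed for collagen folding, was at 0 to 10.4 CPM in iWAT and 12.5 to 32.5 CPM in pgWAT (log2 1.99 ± 0.27, adjusted p = 4.2e-07). Creb3l1, a transcription factor of collagen secretion, differed by 0.60, and Sec23a, a coat protein of transport vesicles, by -0.44. Serpinh1, the collagen chaperone, had a log2 difference of 0.18 ± 0.11 and did not pass (adjusted p = 0.224). Of this list, Tmem38b (1.74), Sec23a (-0.68) and Ppib were called without the conflicting libraries, and Creb3l1 (0.67) was not.

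All 5 tested genes of propeptide cleavage were called. Pcolce2, an enhancer of procollagen trimming, was at 0 to 12.4 CPM in iWAT and 10.4 to 64.2 CPM in pgWAT (log2 2.81 ± 0.31), and Adamts2, a procollagen peptidase, at 93.9 to 260 CPM and 400 to 1032 CPM (log2 1.56 ± 0.12). Its relative Adamts14 was lower in pgWAT, at 25.3 to 110 CPM in iWAT and 1.73 to 33.0 CPM in pgWAT (log2 -1.57 ± 0.26). Adjusted p-values of these 3 genes lay between 4.32e-12 and 1.2e-05. Without the conflicting libraries Pcolce2 (3.09), Adamts2 (1.26) and Adamts14 (-1.66) were called, and 4 of the 5 genes in all.

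All 5 cross-linking enzymes were called, 4 of them higher. Lox, the lysyl oxidase, was at 198 to 574 CPM in iWAT and 404 to 1418 CPM in pgWAT (log2 1.58 ± 0.15, adjusted p = 1.22e-10). Loxl4 differed by 0.97 (adjusted p = 0.0347), and Loxl3 was lower, at 504 to 844 CPM in iWAT and 193 to 519 CPM in pgWAT (log2 -1.001 ± 0.121, adjusted p = 4.37e-08). Lox (1.17) and Loxl3 (-1.07) were also called without the conflicting libraries, whereas Loxl1, Loxl2 and Loxl4 (0.01) were not.

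Of 5 collagen receptors tested, 4 were higher in pgWAT. Itga11, the integrin subunit of fibroblasts that binds fibrillar collagen, was at 0 to 16.3 CPM in iWAT and 74.8 to 184 CPM in pgWAT without overlap (log2 4.40 ± 0.28, adjusted p = 2.2e-14). Ddr1, a collagen-binding tyrosine kinase, was at 3.17 to 13.9 CPM and 17.4 to 60.8 CPM (log2 2.35 ± 0.18, adjusted p = 1.61e-12), also without overlap. Itga2 differed by 1.79 ± 0.47 (adjusted p = 0.00293) and overlapped between depots. Ddr2, the discoidin receptor of mesenchymal cells, was lower by a small amount (log2 -0.28 ± 0.10, adjusted p = 0.0286). Without the conflicting libraries Itga11 (4.13), Ddr1 (2.13) and Mrc2 were called, Ddr2 (-0.24) was not, and Itga2 did not pass the filter on low counts.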

How the data were processed

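Smart-seq3 bulk libraries of 29 SVF cultures were analysed. After adapter removal by NGmerge the authors ran Salmon (1.9.0) on a GRCm39 transcriptome and summed transcripts to genes, and the deposited table holds estimated counts per gene that need not be whole (85.1% of values above 0 are). Counts were rounded to whole numbers. CPM used totals scaled by the trimmed mean of M-values (factors 0.949 to 1.06), and CPM per kb used the longest protein-coding transcript of an older GENCODE annotation. Symbols matched by gene identifier for 91.4% of rows (0.439% of counts had none). At most 1.12% of the stretches of 31 bases in a tested chain (Col3a1) occur in another gene. Whether counting used strand is not given in the sources used here.

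Groups came from the sample labels. edgeR 4.0.16 quasi-likelihood tests (R 4.3.3) used 1 coefficient per depot and sex over all 29 libraries after filterByExpr, with an adjusted p threshold of 0.05. Simulated counts with known changes were recovered at 96% for 2-fold and 78% for 0.5-fold changes in the depot comparison (8853 genes). DESeq2 1.42.0 and limma 3.58.1 voom were alternatives. Members, classes and gene lists were chosen with earlier results of these data known. Values are given for every chain called between depots or between sexes in iWAT and for chains of types I, III, IV, V, VI and XV that passed the filter, and for up to 3 genes per biosynthesis or receptor list with the largest called difference. Kdr, Serpinh1 and Ddr2, the marker genes and chains below the filter were named beside this rule after their values were seen. The level of 3 reads covers counting error only. Promoters came from RefSeq (GRCm38.p6), a different build from that of the counts.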

Additional observations from a re-analysis of the deposited data

Results flagged for a closer look

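Within groups of 4 to 10 libraries, 88 sets of values (the 21 chains and the collagen share of counts in 4 groups) were examined for a single library far from the others, and 2 were found, where chance gives about 1 in 20. Col14a1 in male pgWAT was 18.2 CPM in replicate 4 and 10.4 CPM in the nearest library. Col28a1 in male iWAT was 37.2 CPM in replicate 2 and 20.3 CPM in the nearest library. No chain was called for the depot by sex term by edgeR, DESeq2 or limma-voom. At an unadjusted p under 0.05 edgeR gave 7 of the 21 chains and 772 of 8853 genes. The term rests on sex labels that include those of the conflicting pgWAT libraries, so it cannot decide on a difference between the sexes.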

How the results depend on the processing

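No paired analysis was possible because the labels give no replicate numbers, and the numbers used here only name libraries.

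The depot calls of 13 chains higher and 6 lower changed most with the choice of pgWAT libraries. Without the 5 conflicting libraries, which leaves only pgWAT of plate columns 7 and 8, 5 were higher. The same libraries fitted with no term for the labelled sex (chosen after seeing the data) gave 4 higher. Both fits kept 6 lower, but they rest on the same libraries and are not separate checks. The same removal gave 3 higher in males and 4 in females, Col11a1 at -0.38, Col16a1 at -0.28 and Col5a1 at -0.012 between depots, and in males Col12a1 at -0.56, Col11a1 at -0.91, Col16a1 at -0.64 and Col5a1 at -0.27, and in females Col15a1 at -0.24, Col28a1 at -0.38 and Col16a1 at 0.085. Within column 8 alone the female values were -0.20 for Col15a1, -0.52 for Col28a1 and -0.013 for Col5a1. Col16a1 was -0.068 with columns 7 and 8 only. Leaving out 1 library at a time gave 11 to 13 higher and in each case 6 lower chains between depots, with Col16a1 from -0.075 to 0.17 (below 0 without female pgWAT replicate 4 or male pgWAT replicate 2 or 4), Col16a1 in males from -0.033 (without male pgWAT replicate 4) to 0.46, Col11a1 in females from -0.090 (without female pgWAT replicate 5) to 0.34, and 6 to 11 higher in males (10 in the full data), the 6 without male pgWAT replicate 2. For sex in iWAT, limma-voom and no filter each gave 2 higher, column 7 alone gave 0 higher and 1 lower, and leaving out 1 library gave 1 to 2 higher (2 without female iWAT replicate 2). The depot by sex term gained 1 chain, Col1a1, with no filter, and 0 to 1 when libraries were left out (1 without male pgWAT replicate 1). With plate column as a factor, 2 biosynthesis and receptor genes were lower instead of 4. The cause was not tested, except that fewer libraries entered some fits. Under DESeq2, other size factors and library totals, every chain kept its direction in the depot, within-sex depot and iWAT sex values compared, and the calls that changed were Col5a3 between the sexes in iWAT (called by DESeq2, -0.44) and Col5a1 in males (not called with library totals, 0.50). Col12a1 in females was called (0.80) and lost its call under limma-voom (0.72), with plate column as a factor (0.82) and without female iWAT replicate 1, 4 or 5 or female pgWAT replicate 1, 4 or 5 (0.62 to 0.77). With no filter, Col4a3, Col4a4 and Col8a2 were also called higher and Col6a6 lower in pgWAT. Depth limits the 23 untested chains.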
